A study of Homo sapiens with 12 samples.

Results

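Hypoxia-response and glycolysis genes are described here across the treatments of one cell line. The members were defined by name as 52 genes of the transcriptional response to low oxygen and of glycolysis. Of these, 34 (65.4%) are among the 5759 genes in the authors' deposited table. The other 18 (ADM, ANKRD37, BHLHE40, CA12, DDIT4, EGLN3, ERO1A, GYS1, HILPDA, HK2, JMJD6, NARF, P4HA2, PFKP, PGM1, PLOD1, PLOD2 and RAB20) are not analysed here. Every gene in the table had a false discovery rate (FDR) under 0.05 in at least 1 of its 3 comparisons, and 5757 of the 5759 also had a log2 fold change of at least 1 in size in the same comparison. The listed members are thus a selected subset, and their counts are read beside those of all listed genes. No listed member met both bounds at 1 h, so each met them in a comparison at 6 h. Being called at 6 h is therefore largely set by the listing, and the direction is what is read.

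The response to low oxygen is driven by hypoxia-inducible factors (HIFs), whose alpha subunits are hydroxylated by prolyl hydroxylases when oxygen is present, bound by the von Hippel-Lindau ubiquitin ligase and degraded. When hydroxylation fails, the alpha subunit pairs with ARNT and binds short DNA elements near its target genes. Among these targets are most enzymes of glycolysis, which turns glucose into pyruvate, and genes of lactate production, pH control, mitophagy and blood vessel growth. Leukaemic T cells are known for high glycolytic rates, and several of these enzymes are also targets of other factors such as MYC.

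RNA was sequenced from wild-type MOLT4, an established human T lymphoblast line from an acute lymphoblastic leukaemia, in 12 samples forming 4 groups of 3. Vehicle cells were collected after 6 h in DMSO. Compound 955 was given at 0.1 µM, with collection after 1 h or after 6 h, and SNS-032 at 1 µM, with collection after 6 h. SNS-032 inhibits CDK9, a kinase needed for transcription, and other cyclin-dependent kinases, and 955 is a conjugate of piperlongumine that carries SNS-032 as its target-binding part. The doses of the compounds differ, and with no vehicle group at 1 h the effect of 955 at 1 h and that of the collection time cannot be told apart. The labels do not say whether replicates were separate cultures, so p-values measure only the spread between these samples, which may be technical. RNA came from bulk cultures, in which fewer cells of a kind and less RNA per cell cannot be told apart.

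Each effect is a log2 fold change against DMSO from the authors' deposited table, where 1 unit is a doubling. Genes called higher or lower had an FDR below 0.05 and an effect of at least 1 log2 unit (the fold bound). The error given as SE is implied by the deposited values (the size of the effect divided by the root of its F statistic). It follows the authors' model of the spread and is not an SD of replicates. Values per sample are not used here, so whether single samples overlapped between groups was not tested, and the depth is unknown. Average levels are in log2 CPM (counts scaled to the library total) over all samples, not per length, so they order no genes by abundance. Of the T lymphoblast markers, 5 of 16 are listed (BCL11B, CD3G, CD4, CD7 and DNTT). Among markers of other cell types, CD79A and COL1A1 are listed, at average levels of 3.94 and 3.18 log2 CPM in the authors' deposited table. A marker outside the table is not analysed here, and the part of these markers in the results below was not tested.

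Promoter sequence was examined because HIFs bind a core of the letters ACGTG or GCGTG. Windows from 250 bases before to 50 bases after a RefSeq start (GRCh38.p14) were matched for 30 of the 34 listed members, in 46 windows, 8 members having several. ANKZF1, BNIP3L, NDRG1 and VEGFA had no entry. The upstream 250 bases of 5 members follow, 5′ to 3′ along the gene, with each ACGTG on either strand in capitals (CACGT is its reverse complement, and the palindrome CACGTG, also the E-box bound by MYC and related factors, holds it on both strands). PPFIA4 and MIR210HG are shown for their large changes, CA9 and PGK1 as well-known hypoxia targets, and LDHA as the member that went the other way.
PPFIA4: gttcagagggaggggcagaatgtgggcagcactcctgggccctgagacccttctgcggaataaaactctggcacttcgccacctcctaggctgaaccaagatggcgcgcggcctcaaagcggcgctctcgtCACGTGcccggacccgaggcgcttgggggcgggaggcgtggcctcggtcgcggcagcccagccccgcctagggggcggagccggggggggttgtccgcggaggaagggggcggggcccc
MIR210HG: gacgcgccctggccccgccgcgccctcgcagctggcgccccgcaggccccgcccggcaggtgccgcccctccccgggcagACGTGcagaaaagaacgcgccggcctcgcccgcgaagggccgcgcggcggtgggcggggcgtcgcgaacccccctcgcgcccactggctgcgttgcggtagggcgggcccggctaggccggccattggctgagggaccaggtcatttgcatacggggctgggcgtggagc
CA9: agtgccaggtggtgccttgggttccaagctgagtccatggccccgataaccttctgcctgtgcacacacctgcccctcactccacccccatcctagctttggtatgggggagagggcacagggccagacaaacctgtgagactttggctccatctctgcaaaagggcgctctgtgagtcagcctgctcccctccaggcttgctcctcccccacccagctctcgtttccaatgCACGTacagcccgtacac
PGK1: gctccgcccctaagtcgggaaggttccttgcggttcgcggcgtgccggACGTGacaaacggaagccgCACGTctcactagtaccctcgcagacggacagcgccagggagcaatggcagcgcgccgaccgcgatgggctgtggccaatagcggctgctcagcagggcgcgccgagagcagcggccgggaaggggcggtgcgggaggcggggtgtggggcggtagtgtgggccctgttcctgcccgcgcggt
LDHA: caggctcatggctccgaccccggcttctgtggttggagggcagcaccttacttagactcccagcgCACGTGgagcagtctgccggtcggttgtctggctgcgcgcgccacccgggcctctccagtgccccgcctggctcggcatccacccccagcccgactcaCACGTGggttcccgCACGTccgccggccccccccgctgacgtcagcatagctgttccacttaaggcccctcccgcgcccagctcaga
The windows lie at chr1:203026241-203026490 (plus strand) for PPFIA4, chr11:568458-568707 (minus strand) for MIR210HG, chr9:35673678-35673927 (plus strand) for CA9, chrX:78103998-78104247 (plus strand) for PGK1 and chr11:18394313-18394562 (plus strand) for LDHA. The CA9 match begins 18 bases before the start. In PPFIA4 the match is the palindrome, and LDHA holds it at 2 places besides a further CACGT.

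The core ACGTG was present on either strand in 26 of the 46 member windows (56.5%), against 21.4% of all 35116 RefSeq windows and 25.6% of the windows of all listed genes. Windows of listed genes called higher after 6 h of 955 held it in 24.3% and those of genes called lower in 27.4%. By gene, 22 of 30 members (73.3%) had it in at least 1 window, against 24.9% of all genes with a window and 31.8% of listed genes. The members without it were ENO1, HK1, PFKFB4, PFKL, PGAM1, PKM, RORA and STC2. The palindrome CACGTG was in 11 member windows (23.9%), against 7.26% of all windows, and 17 members had ACGTG outside it. The second core, GCGTG, was in 50% of member windows, 36.5% of all windows and 48.8% of the windows of listed genes. These are descriptions of letters in short windows. Member windows of one gene can overlap, and a match does not show binding.

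**Figure D1:**
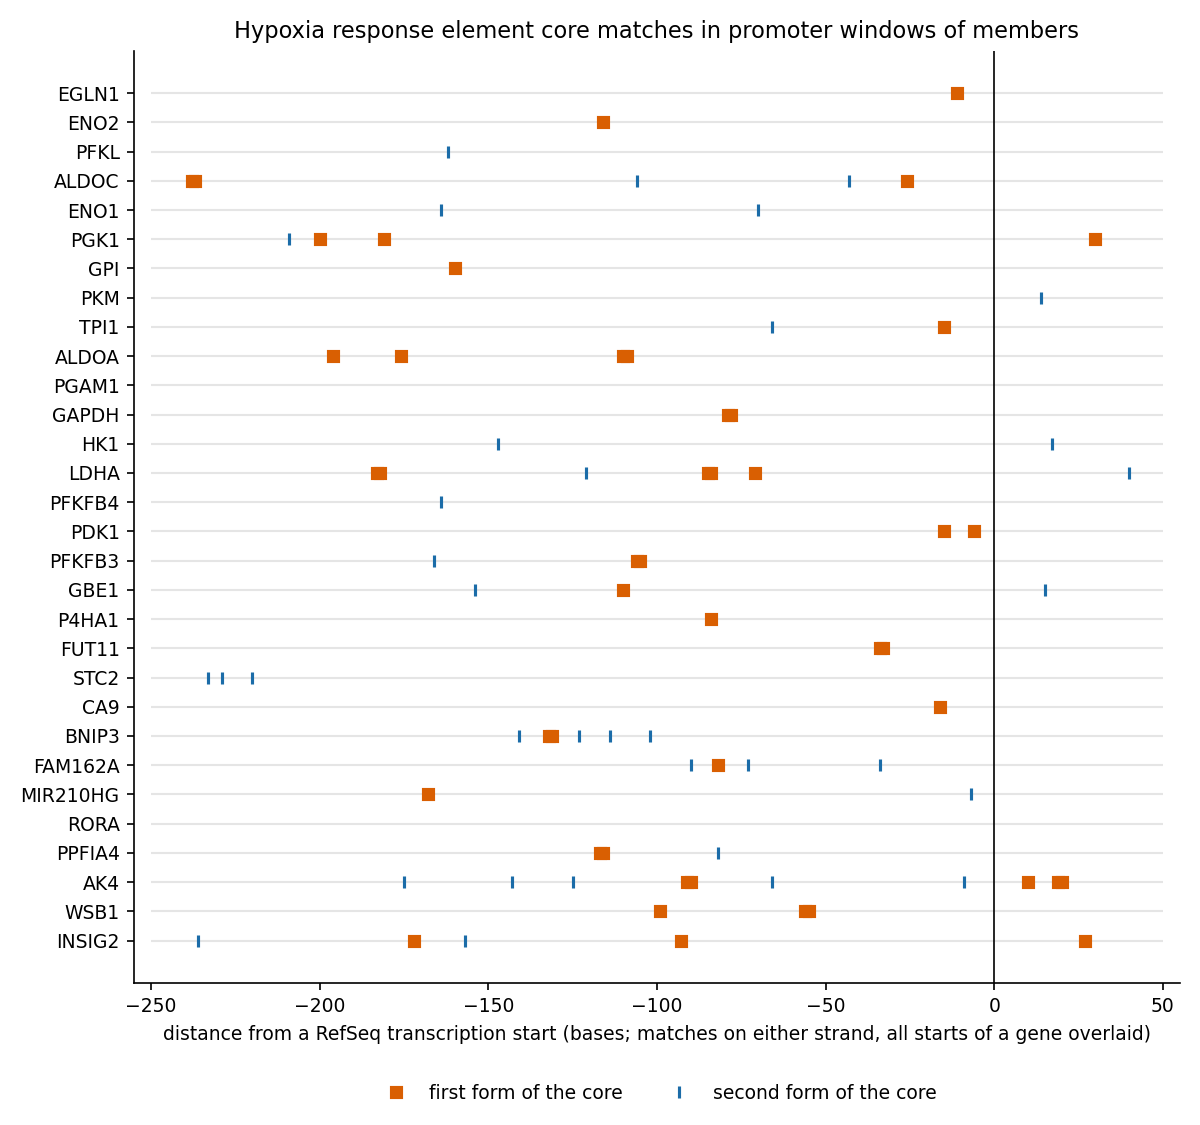
Position of core matches relative to RefSeq transcription starts for the 30 members with a window (x axis, bases; squares mark ACGTG and ticks GCGTG, on either strand, with all starts of a gene overlaid). Of these members, 22 carry at least 1 square, and 8 do not.

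After 6 h of 955, 31 of the 34 listed members were called higher and 1, LDHA, lower in the authors' deposited table, where 35.2% of all listed genes were higher and 50.1% lower. After 6 h of SNS-032 the counts were 32 higher and 1 lower, again LDHA, against 37.8% and 52.5% of all listed genes. The members' median log2 fold change was 2.22 with 955 and 2.40 with SNS-032, while that of all listed genes was -1.03 and -1.07. Both comparisons use the same DMSO samples. These directions are those of the authors' scaling, whose method is not given in the sources used here. When effects were instead measured relative to the median of the 13 mitochondrially encoded mRNAs, which themselves read 2.07 higher with 955 and 2.35 higher with SNS-032, 8 members were higher and 2 lower with 955, and 6 higher and 4 lower with SNS-032. On that scale 142 of all listed genes were higher and 3825 lower with 955, and 116 were higher and 4151 lower with SNS-032. The mitochondrial median was subtracted as a fixed value. Its own error is left out of the calls on that scale, so calls near the threshold there are less certain than they read.

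**Figure D2:**
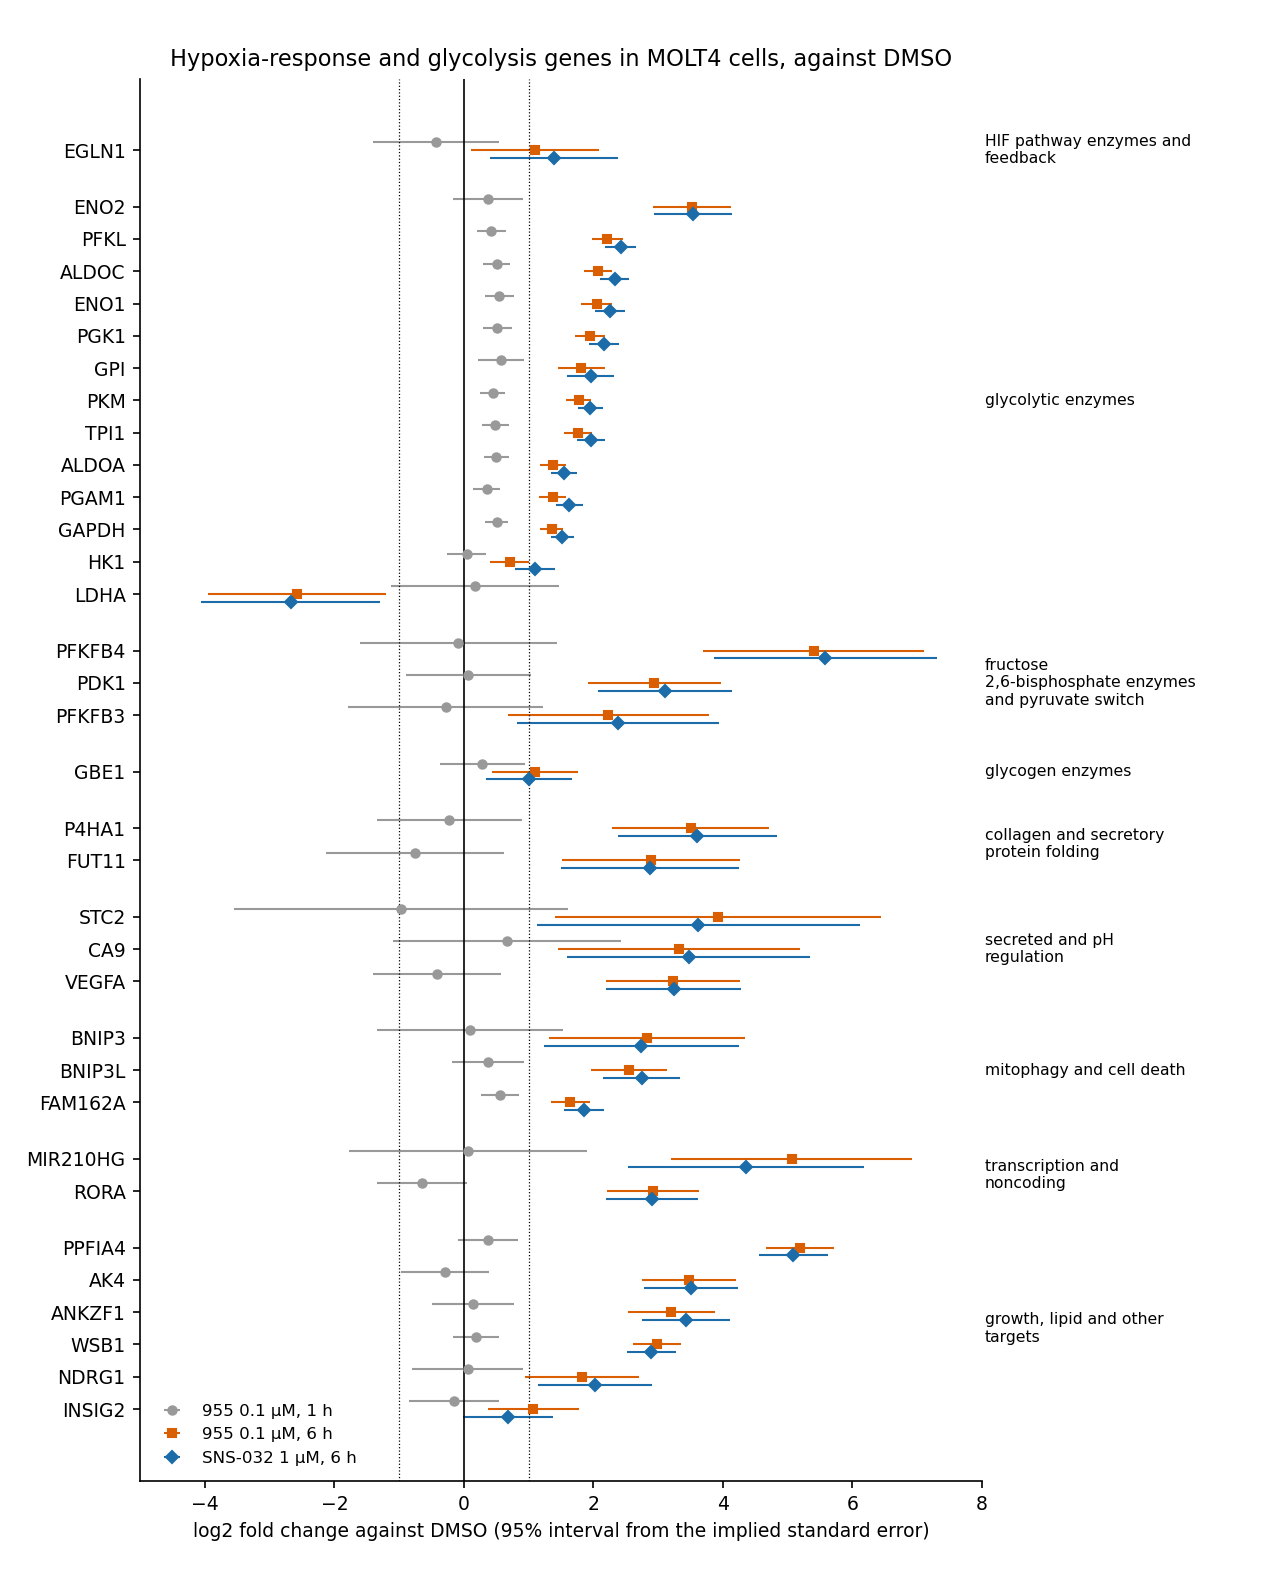
Log2 fold change against DMSO (x axis) of the 34 listed members, grouped by role, for 955 at 1 h (circles), 955 at 6 h (squares) and SNS-032 at 6 h (diamonds), with 95% intervals from the implied SE; dotted lines mark the fold bound. On the authors' scaling both 6 h treatments sit right of 0 for every listed member except LDHA, at -2.58 and -2.68, whereas on the mitochondrial scale 16 of the 34 values at 6 h lie below 0 with either compound.

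The oxygen-sensing arm has 1 listed member. EGLN1, the prolyl hydroxylase that marks HIF alpha for degradation and is itself a HIF target, read 1.10 with 955 (SE 0.43, FDR = 0.105), which missed the threshold, in the authors' deposited table. With SNS-032 it was called higher at 1.39 (SE 0.44, FDR = 0.04) in the authors' deposited table, and on the mitochondrial scale it read -0.97 and -0.95. For EGLN1 the approximate difference of 955 from SNS-032 was -0.30, with a 95% interval of -1.28 to 0.69, so the different calls are not a shown difference.

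Glycolytic enzymes moved together with the exception of lactate dehydrogenase A. Of 13 listed enzymes, 11 rose with 955 and 12 with SNS-032. The 12 enzymes other than LDHA had a median of 1.79 with 955 (range 0.71 to 3.52) and 1.96 with SNS-032 (range 1.10 to 3.54) in the authors' deposited table. Measured against the mitochondrial mRNAs, 10 of these 12 read below 0 with either compound, ENO2 and PFKL being above it.

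The enolase isozyme ENO2, typical of neurons and a known hypoxia target, rose by 3.52 with 955 (SE 0.27, FDR = 1.29e-06) and by 3.54 with SNS-032 (SE 0.27, FDR = 1.14e-06) in the authors' deposited table. This is 11.5-fold and 11.6-fold, and ENO2 was also past the threshold on the mitochondrial scale, at 1.45 and 1.20. PFKL, the liver-type phosphofructokinase that catalyses the committed step, rose by 2.22 (SE 0.11, FDR = 5.44e-13) and 2.42 (SE 0.11, FDR = 1.09e-13) in the authors' deposited table, but read only 0.15 and 0.08 on the mitochondrial scale.

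Other enzymes had smaller effects in the authors' deposited table. The aldolase ALDOC read 2.06 with 955 and 2.33 with SNS-032, the common enolase ENO1 2.05 and 2.25, and the phosphoglycerate kinase PGK1 1.94 and 2.17 in the authors' deposited table. Glucose phosphate isomerase GPI read 1.82 and 1.96, pyruvate kinase PKM 1.77 and 1.96, and triose phosphate isomerase TPI1 1.76 and 1.97 in the authors' deposited table. ALDOA read 1.38 and 1.55, the mutase PGAM1 1.37 and 1.63, and glyceraldehyde-3-phosphate dehydrogenase GAPDH 1.36 and 1.52 in the authors' deposited table. All 9 were called higher with both compounds, and all 9 turned negative on the mitochondrial scale.

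HK1, a hexokinase that begins the pathway, read 0.71 with 955 (FDR = 0.000444), under the fold bound, and rose by 1.10 with SNS-032 (FDR = 1.66e-06) in the authors' deposited table. HK1 was called lower with both on the mitochondrial scale, at -1.36 and -1.25.

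LDHA, which converts pyruvate to lactate and is a textbook HIF target, fell by 2.58 with 955 (SE 0.60, FDR = 0.0106) and by 2.68 with SNS-032 (SE 0.60, FDR = 0.00860) in the authors' deposited table. Its 95% interval with 955 ran from -3.96 to -1.21, and it was also lower on the mitochondrial scale, at -4.66 and -5.02. With 955 the FDR of LDHA did not pass a stricter bound of 0.01, and its spread was wide for its level. At 1 h LDHA read 0.18, with an FDR of 1, in the authors' deposited table. The enzymes that lead to pyruvate, HK1 with 955 aside, and the one that follows it were called in opposite directions at 6 h on the authors' scaling.

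Enzymes that set fructose 2,6-bisphosphate, the strongest activator of phosphofructokinase, held the highest member value. PFKFB4 rose by 5.40 with 955 (SE 0.74, FDR = 0.000473), or 42.3-fold, and by 5.58 with SNS-032 (SE 0.75, FDR = 0.000383), or 48.0-fold, in the authors' deposited table. With 955 it ranked 24 from the top of the 5759 listed genes, and its 95% interval ran from 3.70 to 7.11. PFKFB3 read 2.23 (SE 0.68, FDR = 0.0391) and 2.38 (FDR = 0.0288) in the authors' deposited table, past the threshold with an interval of 0.68 to 3.79 for 955. PDK1, the kinase that inactivates pyruvate dehydrogenase and so keeps pyruvate from the mitochondria, rose by 2.94 (SE 0.45, FDR = 0.000858) and 3.11 (SE 0.45, FDR = 0.000604) in the authors' deposited table. PFKFB4 was still called higher on the mitochondrial scale, at 3.33 and 3.24, while PDK1 (0.87 and 0.76) and PFKFB3 (0.16 and 0.04) were not past the threshold. The glycogen branching enzyme GBE1 read 1.10 with 955 (SE 0.30, FDR = 0.0164) and 1.01 with SNS-032 (SE 0.30, FDR = 0.0249) in the authors' deposited table, just past the fold bound, and -0.98 and -1.34 on the mitochondrial scale. On the latter scale GBE1 was called lower with SNS-032 and missed the threshold with 955.

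P4HA1, the catalytic subunit of collagen prolyl 4-hydroxylase, rose by 3.50 with 955 (SE 0.53, FDR = 0.000864) and 3.61 with SNS-032 (SE 0.53, FDR = 0.000711) in the authors' deposited table. FUT11, a fucosyltransferase that RefSeq now names POFUT4, rose by 2.89 (SE 0.61, FDR = 0.00473) and 2.88 (SE 0.61, FDR = 0.00465) in the authors' deposited table. P4HA1 was past the threshold on the mitochondrial scale with 955 (1.43) but not with SNS-032 (1.26), and FUT11 with neither (0.82 and 0.53).

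Among secreted and pH-regulating products, the stanniocalcin STC2 read 3.92 with 955 (SE 1.10, FDR = 0.0269) and 3.62 with SNS-032 (SE 1.09, FDR = 0.0360) in the authors' deposited table, the widest error of any listed member. CA9, a cell surface carbonic anhydrase that is a standard marker of hypoxic tumours, rose by 3.32 (SE 0.81, FDR = 0.0140) and 3.47 (SE 0.82, FDR = 0.0110) in the authors' deposited table. VEGFA, the main growth factor of blood vessels, rose by 3.23 (SE 0.46, FDR = 0.000445) and 3.24 (SE 0.46, FDR = 0.000419), or 9.39-fold and 9.44-fold, in the authors' deposited table. All 3 stayed above 0 on the mitochondrial scale, but there only VEGFA with 955 was past the threshold (1.16).

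Mitophagy receptors also moved. BNIP3 rose by 2.83 with 955 (SE 0.66, FDR = 0.0109) and 2.74 with SNS-032 (SE 0.66, FDR = 0.0121), and its paralogue BNIP3L rose by 2.56 (SE 0.27, FDR = 1.75e-05) and 2.75 (SE 0.27, FDR = 9.38e-06) in the authors' deposited table. FAM162A, a small mitochondrial protein induced by hypoxia, rose by 1.65 (SE 0.15, FDR = 3.57e-09) and 1.86 (SE 0.15, FDR = 4.51e-10) in the authors' deposited table. On the mitochondrial scale BNIP3 (0.76 and 0.40) and BNIP3L (0.48 and 0.40) read above 0 and FAM162A (-0.43 and -0.49) below it.

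MIR210HG, the host transcript of the hypoxia microRNA miR-210, rose by 5.06 with 955 (SE 0.82, FDR = 0.00110), or 33.5-fold, and by 4.36 with SNS-032 (SE 0.80, FDR = 0.00235), or 20.5-fold, in the authors' deposited table. This is a level of the host transcript, and the mature microRNA is not analysed here. RORA, a nuclear receptor, rose by 2.92 (SE 0.33, FDR = 7.49e-06) and 2.90 (SE 0.33, FDR = 7.33e-06) in the authors' deposited table. MIR210HG was still called higher on the mitochondrial scale, at 2.99 and 2.01, and RORA read 0.85 and 0.56.

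The remaining targets included PPFIA4, a liprin scaffold protein, which rose by 5.19 with 955 (SE 0.25, FDR = 4.43e-10), or 36.6-fold, and 5.09 with SNS-032 (SE 0.25, FDR = 4.06e-10), or 34.1-fold, in the authors' deposited table. Its interval of 4.66 to 5.72 with 955 was narrow beside that of PFKFB4. AK4, a mitochondrial adenylate kinase, rose by 3.47 (SE 0.33, FDR = 8.06e-06) and 3.51 (SE 0.33, FDR = 6.87e-06) in the authors' deposited table. ANKZF1, a factor of ribosome quality control, rose by 3.21 (SE 0.30, FDR = 1.07e-05) and 3.43 (SE 0.31, FDR = 6.11e-06) in the authors' deposited table. These 3 genes were also called higher on the mitochondrial scale, PPFIA4 at 3.12 and 2.75, AK4 at 1.40 and 1.16, and ANKZF1 at 1.13 and 1.08.

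WSB1, a SOCS-box protein of a ubiquitin ligase, read 2.98 with 955 and 2.89 with SNS-032, and the stress-induced NDRG1 1.83 and 2.03, in the authors' deposited table, and each gene was called higher after either treatment. INSIG2, which retains the sterol sensor in the endoplasmic reticulum, was called higher with 955 at 1.07 (FDR = 0.0216) and read 0.68 with SNS-032 (FDR = 0.158) in the authors' deposited table. On the mitochondrial scale WSB1 read 0.91 and 0.55, NDRG1 -0.24 and -0.32, and INSIG2 -0.999 and -1.67. Of these values only that of INSIG2 with SNS-032 was past the threshold, as lower.

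**Figure D3:**
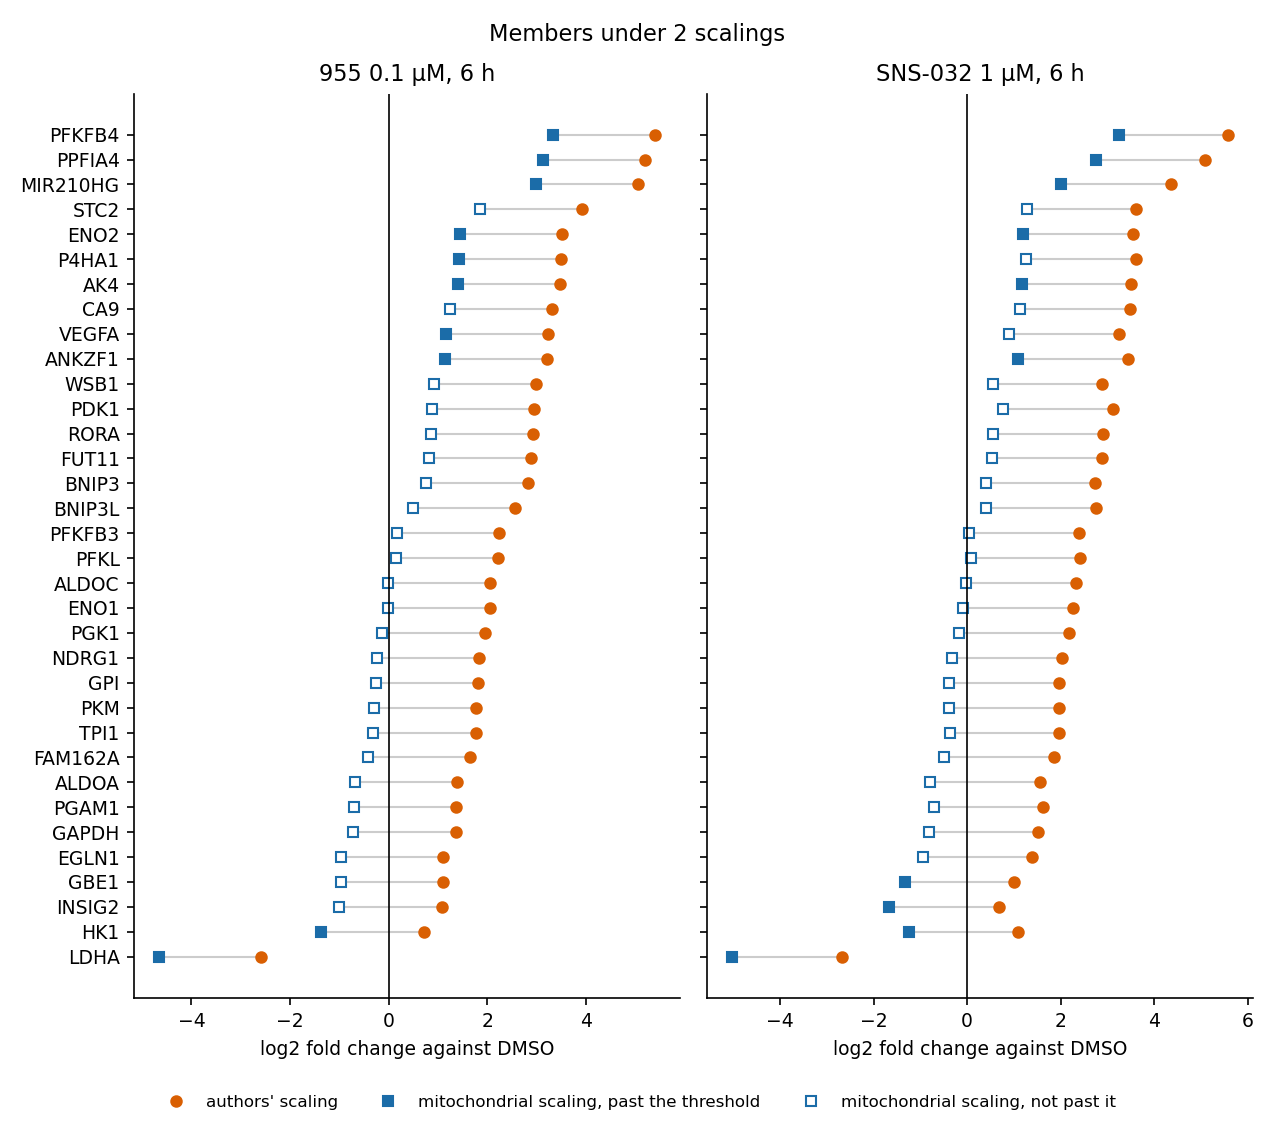
The same log2 fold changes at 6 h (x axis) under the authors' scaling (circles) and relative to the 13 mitochondrially encoded mRNAs (squares, filled when past the threshold) for 955 (left) and SNS-032 (right). Every value shifts left by 2.07 or 2.35, leaving 18 members above 0 and 16 below in each panel, with PFKFB4, PPFIA4 and MIR210HG farthest right.

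At 1 h of 955 no listed member was called higher or lower, against 0.729% and 7.71% of all listed genes. At an unadjusted p under 0.05, 11 members were higher and 0 lower, against 13.6% and 22.9% of all listed genes, and none of the 11 reached the fold bound. By FDR alone, 10 were higher and 0 lower in the authors' deposited table, where 4.72% of all listed genes were higher and 11.9% lower by that rule. These were ALDOA, ALDOC, ENO1, FAM162A, GAPDH, PFKL, PGAM1, PGK1, PKM and TPI1, with log2 fold changes from 0.35 for PGAM1 to 0.56 for FAM162A in the authors' deposited table. So 9 of the 10 were glycolytic enzymes, and the 12 enzymes other than LDHA had a median of 0.49 with narrow errors. The 21 members outside this group had a median of 0.06, and among them PFKFB4 read -0.09, VEGFA -0.42 and MIR210HG 0.06 in the authors' deposited table. On the mitochondrial scale, where the shift at 1 h was 0.67, all 34 values were below 0, and EGLN1 (-1.11) and RORA (-1.32) were called lower. Of the 5759 listed genes, 5345 were below 0 on that scale, with 1766 called lower and 16 higher, so values below 0 are not particular to the members.

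Between 1 h and 6 h of 955, 29 listed members were higher at 6 h and 1, LDHA, lower by the approximate contrast (adjusted p under 0.05 and a difference of at least 1), against 27% and 35.6% of all listed genes. PFKFB4 differed by 5.49 (95% interval 3.87 to 7.10), MIR210HG by 5.01 (3.16 to 6.86), STC2 by 4.90 (2.35 to 7.45) and PPFIA4 by 4.82 (4.32 to 5.32). LDHA differed by -2.76 (-4.10 to -1.42). ALDOA (0.88), GAPDH (0.85), GBE1 (0.81) and HK1 (0.67) had an adjusted p under 0.05 with a difference under the bound. On the mitochondrial scale 13 members were higher at 6 h, and 10 turned negative (ALDOA, FAM162A, GAPDH, GBE1, GPI, HK1, INSIG2, PGAM1, PKM and TPI1). The share of all listed genes called on that scale was not counted for this contrast.

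Between 955 at 0.1 µM and SNS-032 at 1 µM no listed member differed past the threshold at 6 h by the approximate contrast, against 0.851% of all listed genes higher and 0.26% lower with 955. At an unadjusted p under 0.05, 3 members were lower with 955, and 0 were higher, against 6.42% and 8.33% of all listed genes by that rule. These were HK1 (-0.39, 95% interval -0.69 to -0.08), ALDOC (-0.26, -0.48 to -0.05) and PGAM1 (-0.26, -0.47 to -0.05), with HK1 having the lowest adjusted p of 0.197. All 12 glycolytic enzymes other than LDHA read below 0 in this difference on the authors' scaling, with a median of -0.21. The mitochondrial mRNAs differed by -0.27 as well, and relative to them 11 of the 12 enzymes read above 0 and only HK1 below (-0.11), with a median of 0.07. Of all 34 members 32 read above 0 on that scale, which subtracts the same -0.27 from every listed gene. All listed genes had a median difference of -0.0012 on the authors' scaling. Their share above 0 on the mitochondrial scale was not counted, so nothing particular to the members is drawn from these counts. For 20 of the 34 the 95% interval lay within 1 log2 unit of 0, while for 14 it reached 1 unit or more. The intervals extended by 0.18 on either side for GAPDH and by 2.51 for STC2, with a median of 0.67. MIR210HG had the largest difference, 0.71, with an interval of -1.13 to 2.55. These comparisons join different doses, and a difference that missed the threshold does not show that the compounds act alike.

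The members differed in how far replicates spread. The denominator degrees of freedom recovered from F and p, which fall toward the 8 that the 12 samples in 4 groups leave when a gene's spread stands apart from that of most genes, were under 10 for 14 of the 34 listed members (41.2%), against 201 of all 5759 listed genes (3.49%). Of the 21 members outside the glycolytic enzymes 13 were under 10 (61.9%), and of the 13 glycolytic enzymes only LDHA (7.69%). For 955 at 6 h the median implied SE was 0.11 for the glycolytic enzymes, 0.43 for the other members and 0.24 for all listed genes. Beside the 200 listed genes nearest in average level, 14 members had an SE above that of 95% of these neighbours, 13 of them outside the glycolytic enzymes and the other one LDHA. This set is not the one with under 10 degrees of freedom, since it holds AK4 and not ANKZF1. PFKFB4, MIR210HG, CA9, STC2, P4HA1, PDK1 and VEGFA were among the members with under 10, while PPFIA4, AK4, WSB1 and RORA were not. Which samples spread was not tested.

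**Figure D4:**
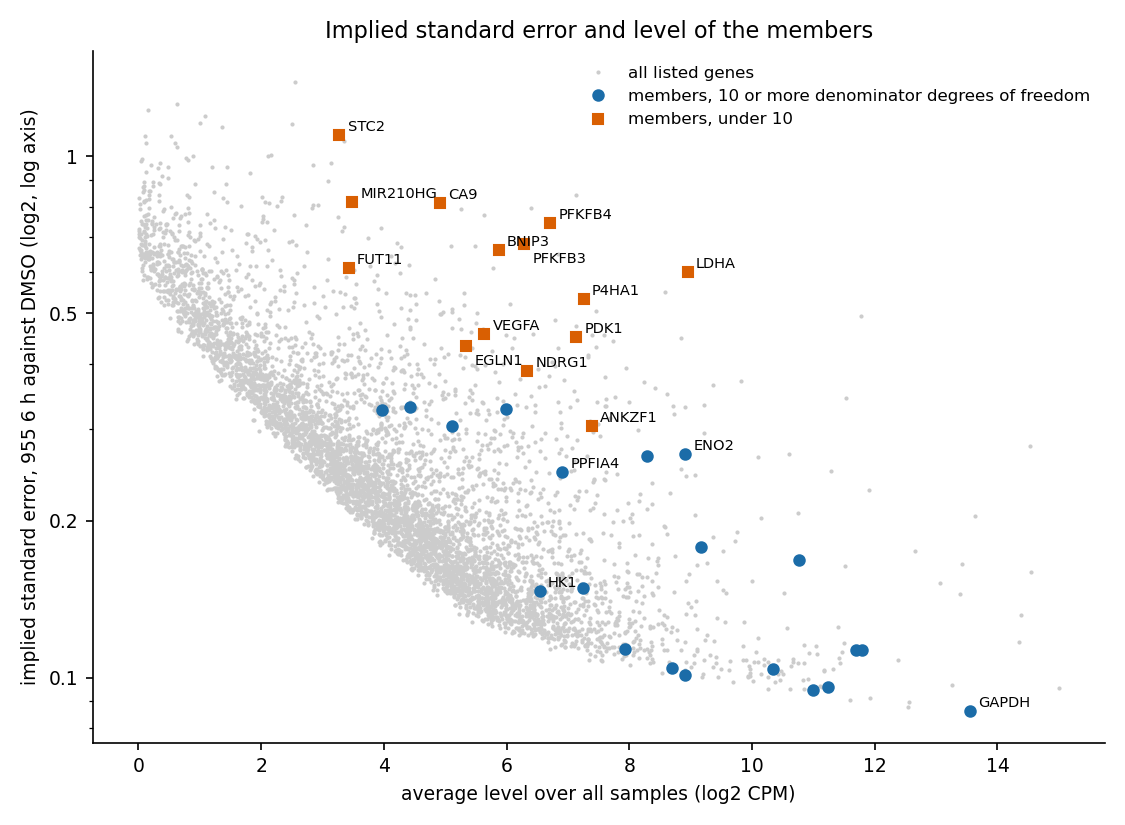
Implied SE of the 955 effect at 6 h (y axis, log scale) against average level (x axis, log2 CPM) for all 5759 listed genes (dots) and the 34 members (circles with 10 or more denominator degrees of freedom, squares with under 10). The 14 squares run from ANKZF1 at 0.30, above 90% of the 200 genes nearest in level, to STC2 at 1.10, above 100% of them, and GAPDH has the lowest SE, 0.09.

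Genes of neighbouring pathways were taken from lists of names. Of 17 HIF regulators 6 are listed, with 1 higher and 4 lower after 955 and 2 higher and 4 lower after SNS-032. EPAS1, the HIF alpha subunit HIF-2 alpha, rose by 1.90 and 2.38, while CITED2, which competes with HIF for its coactivators, fell by 2.47 and 2.50 and CUL2, the scaffold of the von Hippel-Lindau ligase, fell by 2.44 and 2.07 in the authors' deposited table. CITED2 read -1.48 already at 1 h (FDR = 0.00132) in the authors' deposited table. Of 24 other HIF targets 12 are listed, 10 higher and 2 lower with either compound on the authors' scaling, and on the mitochondrial scale 0 higher, with 3 lower after 955 and 5 lower after SNS-032. LOX, an enzyme that crosslinks collagen, read 3.85 and 4.48 in the authors' deposited table. The implied SE of LOX was 1.23 with 955 and 1.25 with SNS-032, and its FDR was 0.0311 and 0.0139 in the authors' deposited table. The average level of LOX was 0.15 log2 CPM in the authors' deposited table, under the minimum of 1 tried for the members. The size of its rise is therefore uncertain. The lipoprotein receptor VLDLR read 3.23 and 3.44 in the authors' deposited table. SPAG4 read 2.62 and 2.84 in the authors' deposited table. The 2 lower genes, named after their values were seen, were the chemokine receptor CXCR4 (-2.42 and -3.14) and CXXC5 (-1.13 and -1.45) in the authors' deposited table. Against the mitochondrial mRNAs no listed HIF regulator was higher and 5 were lower with either compound. Of all 5759 listed genes, 3825 were lower and 142 higher on that scale with 955, and 4151 lower and 116 higher with SNS-032. Nothing particular to the HIF regulators or the other HIF targets is drawn from these counts. On the mitochondrial scale EPAS1 read -0.17 with 955 and 0.04 with SNS-032, and LOX, VLDLR and SPAG4 read 1.78, 1.16 and 0.54 with 955, none past the threshold.

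Genes around pyruvate and the mitochondria went both ways. Of 21 other glycolytic isozymes and related enzymes 6 are listed, 3 higher and 3 lower with either compound. The 3 higher were isozymes of glycolytic steps. They were the muscle enolase ENO3 at 3.62 and 3.54, PFKM at 1.00 and 1.15 and PGAM2 at 1.00 and 1.23 in the authors' deposited table. The 3 lower were related enzymes and not such isozymes. They were the mitochondrial phosphatase PGAM5 at -2.0 and -2.47, the fructose 2,6-bisphosphatase TIGAR at -1.86 and -1.63 and BPGM at -1.16 and -1.23 in the authors' deposited table. PFKM, PGAM2 and BPGM were named after their values were seen. Of 10 glucose and lactate transport genes 3 are listed, 0 higher and 1 lower with 955 and 1 higher and 2 lower with SNS-032. The lactate transporter SLC16A1 fell by 2.32 and 2.56 in the authors' deposited table. Of 11 pyruvate dehydrogenase genes 3 are listed, with PDHB at -2.20 and -2.19, DLAT at -1.97 and -2.03 and the kinase PDK3 at 1.07 and 1.18 in the authors' deposited table, all past the threshold. Of 16 tricarboxylic acid cycle genes 7 are listed, 1 higher and 5 lower with 955, led, in the authors' deposited table, by fumarate hydratase FH at -2.55 with 955 and -2.43 with SNS-032. The succinate dehydrogenase subunits SDHB and SDHA also fell by 1.69 and 1.45 with 955, and the 1 gene called higher, named after its values were seen, was SUCLG2 at 1.10, in the authors' deposited table. Of 8 pentose phosphate genes only PGD is listed, at -1.10 with 955 (FDR = 0.0393) and -1.01 with SNS-032 (FDR = 0.0546) in the authors' deposited table. Of 15 glycogen genes 6 are listed, 2 higher and 3 lower with 955 and 3 higher and 1 lower with SNS-032, with the phosphorylase PYGL at 1.66 and 2.20, the glycogen synthase kinase GSK3A at -1.39 and -1.65 and the phosphorylase kinase subunit PHKA1 at 1.20 and 1.5 in the authors' deposited table. On the mitochondrial scale only ENO3 (1.55 and 1.19) was higher among the listed genes of these 6 lists with either compound. The counts on the authors' scaling stand beside 35.2% higher and 50.1% lower of all listed genes for 955. For SNS-032 these shares were 37.8% and 52.5%. Nothing particular to a list is drawn from the counts.

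**Figure D5:**
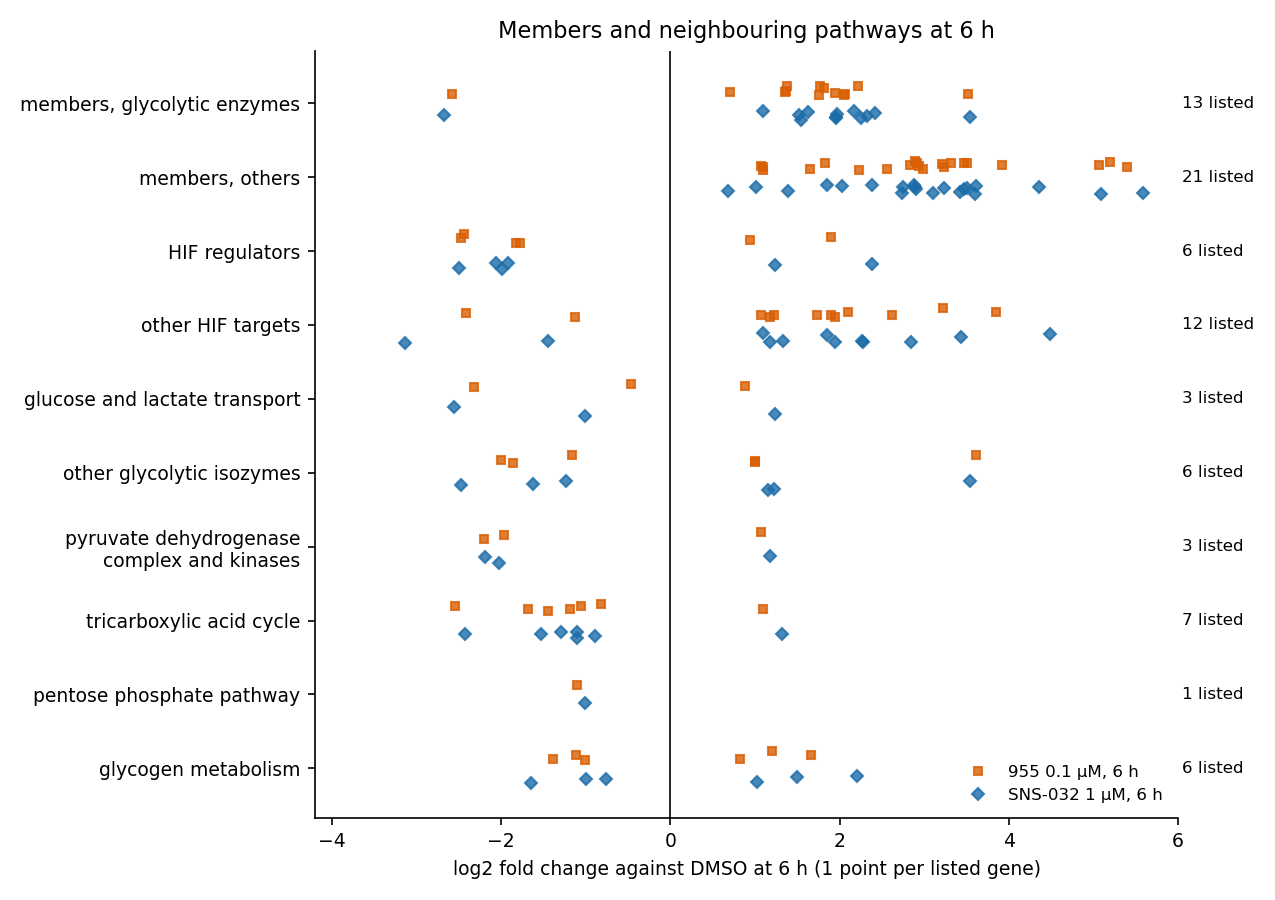
Log2 fold change against DMSO at 6 h on the authors' scaling (x axis; squares 955, diamonds SNS-032) for each listed gene of the members and of 8 neighbouring lists. LDHA is the only member left of 0, and the tricarboxylic acid cycle list has 6 of its 7 genes left of 0; the mitochondrial scale moves every point left by 2.07 (955) or 2.35 (SNS-032).

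Some members have near-identical copies or overlapping genes, so their counts can include or lose reads by the way reads were assigned, which is not given in the sources used here. RefSeq names 65 pseudogenes after GAPDH, 46 after BNIP3, 13 after PGAM1 and 6 each after LDHA and AK4. In GENCODE release 29 models, 15 members overlap a gene on the opposite strand, among them CA9 with ARHGEF39 and ANKZF1 with GLB1L, and 5 overlap one on the same strand, among them PFKFB4 with UCN2. Their values are uncertain to that extent.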

How the data were processed

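The values analysed are a table of the authors' own comparisons against DMSO, with 955 after 1 h and after 6 h and with SNS-032 after 6 h (12 samples, 3 per group, assigned by their titles). Per the file headers, each comparison has deposited values of log fold change, average log CPM, an F statistic (a score deposited by the authors), a p-value and an FDR, used as the authors deposited them. The log fold change and log CPM deposited by the authors were taken as log2 values, since each gene reaches a size of at least 1.00058 in some comparison. The submitters' processing notes list DESeq2 and hg38 without a role. Which software made the deposited F statistic, p-value and FDR is not known. The aligner, counter, strand setting and annotation are not given in the sources used here. The FDR matched a Benjamini-Hochberg adjustment over 28395 tests (81.1% of 3083 values gave whole ranks within 0.01). Depth per sample is unknown, so no interval that needs depth is given.

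The members and all gene lists were chosen with earlier results of these data known. Members were matched by symbol, and FUT11 by its RefSeq synonym. Of 5759 gene IDs, 5727 matched RefSeq (GRCh38.p14) names. Contrasts of 2 treated groups were approximated by the difference of their log2 fold changes, with the quadratic mean of their implied standard errors, a t distribution on the denominator degrees of freedom of each gene, and p-values adjusted by Benjamini-Hochberg over the 5759 listed genes. The approximation was run on simulated data, but no outcome is reported here, so nothing is drawn from that run. Its accuracy for the deposited values was not tested. Intervals are at 95%. Every listed member was named by role, with full statistics for up to 3 per role with the largest change after 6 h of 955, and up to 3 listed genes of each other list by the same rule. Alternatives were a mitochondrial scaling, a stricter FDR, no fold bound, a minimum level, other standard errors and 1 strand for motifs. Python 3.11.15, pandas 2.3.3, numpy 2.4.6, SciPy 1.17.1 and matplotlib 3.10.9 were used. One marker of another cell type is not reported here.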

Additional observations from a re-analysis of the deposited data

How the results depend on the processing

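No paired analysis was possible because the comparisons are the authors' contrasts, and values per sample are not used here. For the same reason leaving out single replicates was not run. Relative to the mitochondrially encoded mRNAs, members called higher numbered 8 (955, 6 h), 6 (SNS-032, 6 h) and 13 (6 h against 1 h of 955), and members called lower numbered 2 (955, 6 h), 4 (SNS-032, 6 h) and 2 (955, 1 h). Under that scaling these log2 fold changes turned negative with 955 at 6 h: ALDOC -0.0066, ENO1 -0.022, PGK1 -0.13, NDRG1 -0.24, GPI -0.26, PKM -0.30, TPI1 -0.31, FAM162A -0.43, ALDOA -0.69, PGAM1 -0.70, GAPDH -0.71, GBE1 -0.98 and INSIG2 -0.999, besides HK1 at -1.36 and EGLN1 at -0.97, which had both missed the threshold. With SNS-032 they were ALDOC -0.018, ENO1 -0.091, PGK1 -0.18, NDRG1 -0.32, GPI -0.39, PKM -0.39, TPI1 -0.37, FAM162A -0.49, ALDOA -0.80, PGAM1 -0.72, GAPDH -0.83, EGLN1 -0.95, GBE1 -1.34 and HK1 -1.25, besides INSIG2 at -1.67, which had missed the threshold. Between 6 h and 1 h of 955 they were GPI -0.15, PKM -0.067, TPI1 -0.12, FAM162A -0.31, PGAM1 -0.38 and INSIG2 -0.18, besides ALDOA -0.52, GAPDH -0.55, GBE1 -0.59 and HK1 -0.73, whose differences had been under the fold bound. The shift is the same for every gene by construction, and which scale is closer to RNA per cell was not tested. Without the fold bound 10 members were higher at 1 h. At an FDR under 0.01, 25 members were higher with 955 and 0 lower (LDHA, BNIP3, CA9, GBE1, INSIG2, PFKFB3 and STC2 were lost), and 26 were higher with SNS-032. A minimum average level of 1 and the larger of both standard errors changed no member's call. Computing the error as if the control were not shared lost CA9 between 6 h and 1 h. On the given strand alone 18 of 46 member windows held ACGTG. Depth is unknown, and members with few denominator degrees of freedom have the widest intervals.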

Other observations

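TPI1P2, a pseudogene of TPI1, is the only pseudogene of a member in the authors' deposited table. It read -1.73 with 955 (FDR = 0.0328) and -1.95 with SNS-032 (FDR = 0.0166) at 6 h in the authors' deposited table, where TPI1 itself read 1.76 and 1.97. Among the 5 listed T lymphoblast markers, CD7 read 1.59 and 1.90, CD4 2.26 and 2.37, BCL11B 1.45 and 1.57, CD3G -1.39 and -1.46, and DNTT 0.98 (FDR = 0.0574) and 1.33 (FDR = 0.0134) in the authors' deposited table. Relative to the mitochondrial mRNAs 0 of these 5 were higher and 2, CD3G and DNTT, were lower with either compound. Of all 5759 listed genes, 142 were higher and 3825 lower on that scale with 955, and 116 higher and 4151 lower with SNS-032. Nothing particular to the markers is drawn from this count.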
